A study of Mus musculus with 12 samples.

Results

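The genes described here act when DNA is broken or when a replication fork stalls. They were chosen by name: 33 names of checkpoint and homologous repair genes were looked up among the 24982 gene symbols of the files, and 32 were found. The name Claspn is not a symbol of the files. Claspin, the adaptor that lets ATR activate CHK1, is encoded in the mouse by Clspn, whose values are given beside the 32 members and are not counted with them. The list also holds Msh6 and Pms2, which act in mismatch repair.

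Cells answer DNA damage in stages. The kinases ATM and ATR are activated at breaks and at single-stranded DNA and pass the signal to CHK2 and CHK1, which hold the cell cycle. The ends are then cut back, BRCA1, PALB2 and BRCA2 help to prepare them for strand exchange, and the sister DNA is copied. The Fanconi anaemia proteins remove crosslinks between strands, and many of these genes are transcribed mainly in cells that copy their DNA.

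B lymphocytes were isolated from spleens of mice 6 weeks old, and their polyadenylated RNA was sequenced. There were 12 libraries, 4 for each of 3 genotypes: wild-type C57BL/J6 mice (WT), mice with the Eμ-Myc transgene, and mice with both the Eμ-Myc transgene and a knockout of PRPS2, called the knockout group here. The transgene drives Myc from the immunoglobulin heavy-chain enhancer and thus in the B lineage, and both transgenic groups carry it. PRPS2 makes phosphoribosyl pyrophosphate, from which nucleotides are built. The labels call the libraries biological replicates and give neither the sex of the mice, the number of animals in a library nor the way the knockout was made, so p-values measure only the spread between these libraries. In the series' text, the comparison with WT catalogues what Myc deregulates, and the comparison of the transgenic groups asks whether PRPS2 loss touches it.

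The values are mean coverages per gene, so they are levels per length of transcript. Summed coverage per library ran from 1277305.5 to 1885768.9, how many reads stand behind a value is unknown, and levels are given as coverage scaled between libraries. Prps2, the targeted gene, had a mean of 246 ± 36.6 with Eμ-Myc and of 17.1 ± 0.857 with the knockout as well (n = 4, SD). All 7 B-cell markers were detected in every group, and their sum was 6359, 11966, 10128 and 6150 in WT libraries 1 to 4, 7227 to 9022 in Eμ-Myc and 6675 to 7390 in the knockout group. WT libraries 1 and 4 thus lay below WT libraries 2 and 3. Markers of other cells differed between libraries: the summed level of 9 T-cell genes was 484 to 2912 in WT, 110 to 156 in Eμ-Myc, 625 and 695 in knockout libraries 1 and 2, and 22.2 and 19.0 in knockout libraries 3 and 4. The 8 myeloid genes summed to 7827 to 24538 in WT, 5620 to 16635 in Eμ-Myc, 15057 and 11269 in knockout libraries 1 and 2, and 2951 and 1234 in knockout libraries 3 and 4. Knockout libraries 1 and 2 thus stand apart from 3 and 4. Eμ-Myc library 2 stood apart in another way: among expressed genes with a transcript of at least 6000 bases its median deviation from the group median was -0.35 on the log2 scale, and among those under 2000 bases it was 0.20.

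The promoters show what the members share outside their coverage. RefSeq (GRCm38.p6) gave a window of 250 bases before to 50 after the start site for 25 of the 32 members. Wee1, Xrcc2, Exo1, Fancd2, Rad50, Nbn and Rbbp8 had no window. The motifs were searched on both strands. An E2F-type site was taken as TTCCCGC or as TTGGCGC or as TTCGCGC or as TTGCCGC. Such a site stood in 16 of the 25 windows (64.0%), against 9.57% of all 32851 windows and 16.2% of the 12529 windows of genes tested in Eμ-Myc against WT. The letters CCAAT stood in 16 of the 25 as well, against 37.4% of all windows and 38.0% of those of tested genes. The Myc-type E-box CACGTG stood in 0 of the 25, against 7.15% of all windows and 9.99% of those of tested genes. The CHR element TTTGAA stood in that of Bard1 alone, against 17.9% and 12.4%. In the 3702 windows of genes called higher in Eμ-Myc against WT, the share was 22.1% for E2F-type sites and 42.3% for CCAAT. For the E-box it was 11.3% and for CHR 14.4%. A match is a description of letters and not of a bound site.

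The windows of 5 members are shown with E2F-type sites and CCAAT letters (ATTGG on the other strand) in capitals, to set 3 genes that rose strongly with Eμ-Myc and hold an E2F-type site beside 2 that were not called. The first 3, Chek1 (chr9:36726609-36726908, minus strand), Rad51ap1 (chr6:126939538-126939837, minus strand) and Brip1 (chr11:86201144-86201443, minus strand), rose. The last 2, Rad52 (chr6:119902448-119902747, plus strand) and Trp53bp1 (chr2:121271358-121271657, minus strand), did not pass the test. Each window reaches 50 bases past the start site given by RefSeq. In GENCODE M21, Chek1 starts at 36727065, so its window lies inside that annotated gene.
Chek1: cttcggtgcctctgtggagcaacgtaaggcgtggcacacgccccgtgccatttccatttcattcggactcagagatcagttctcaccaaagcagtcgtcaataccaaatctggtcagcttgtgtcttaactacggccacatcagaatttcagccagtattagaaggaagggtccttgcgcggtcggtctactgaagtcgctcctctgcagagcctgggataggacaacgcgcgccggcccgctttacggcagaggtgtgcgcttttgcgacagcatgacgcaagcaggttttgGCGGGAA
Rad51ap1: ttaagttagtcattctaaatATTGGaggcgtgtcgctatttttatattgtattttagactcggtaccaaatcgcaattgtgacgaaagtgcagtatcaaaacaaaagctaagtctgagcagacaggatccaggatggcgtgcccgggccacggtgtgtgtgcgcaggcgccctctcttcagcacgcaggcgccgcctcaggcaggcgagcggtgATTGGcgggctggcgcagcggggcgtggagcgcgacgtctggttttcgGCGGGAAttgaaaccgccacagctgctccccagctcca
Brip1: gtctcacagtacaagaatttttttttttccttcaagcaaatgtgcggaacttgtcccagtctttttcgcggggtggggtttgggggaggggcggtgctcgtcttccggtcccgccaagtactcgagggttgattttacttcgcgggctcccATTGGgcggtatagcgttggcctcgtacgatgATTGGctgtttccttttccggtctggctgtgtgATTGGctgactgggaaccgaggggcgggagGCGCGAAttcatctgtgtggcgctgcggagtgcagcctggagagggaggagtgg
Rad52: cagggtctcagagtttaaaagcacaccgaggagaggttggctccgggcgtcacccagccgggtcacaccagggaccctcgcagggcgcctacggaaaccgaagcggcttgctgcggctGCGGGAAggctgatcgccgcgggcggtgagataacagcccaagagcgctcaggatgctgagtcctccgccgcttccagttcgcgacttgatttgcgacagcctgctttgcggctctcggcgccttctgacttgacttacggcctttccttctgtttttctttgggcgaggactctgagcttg
Trp53bp1: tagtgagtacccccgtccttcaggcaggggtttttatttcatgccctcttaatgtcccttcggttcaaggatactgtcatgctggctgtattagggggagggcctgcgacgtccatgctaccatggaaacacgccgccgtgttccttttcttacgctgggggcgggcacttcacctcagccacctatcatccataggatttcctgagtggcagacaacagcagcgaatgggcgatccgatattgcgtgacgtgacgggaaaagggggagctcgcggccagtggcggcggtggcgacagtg

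Chek1 held its E2F-type site 44 bases after the RefSeq start site, Rad51ap1 13 bases after it and Brip1 4 bases before it. Brip1 also held CCAAT letters 3 times and Rad51ap1 2 times. Rad52 held an E2F-type site 132 bases before its start, and Trp53bp1 held neither motif. The site was thus not limited to members that rose: Atm and Mdc1, which were not called, held it too. Nor did every strong riser hold it: Rad54l and Xrcc3, which rose by 2.82 and 2.21, had none in their windows. Its 16 holders had a median log2 fold change of 1.34 in Eμ-Myc against WT, and the 9 members without it 0.64. Over all tested genes these medians were 0.18 with the site and -0.06 without it. For CCAAT the order among members was the opposite, 1.05 with and 1.20 without. These are descriptions without a test.

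In Eμ-Myc B cells most of the checkpoint and repair genes stood higher than in WT and none stood lower past the test. Of the 32 members, all of which were tested, 26 rose and 0 fell at an adjusted p under 0.05 in limma. Over all 12704 genes tested, 30.5% rose and 24.7% fell. The members' median log2 fold change was 1.11, against -0.01 over all genes, and the unadjusted p was below 0.05 for 27 members and for 60.8% of all genes. In addition, 19 members rose by at least 1 on the log2 scale, as did 12.2% of all genes. In 26 members no Eμ-Myc library was as low as the highest WT library, against 28.7% of all genes. In bulk RNA, more cells that express a gene and more RNA per cell cannot be told apart.

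Scaling by total coverage moved the median of all genes from -0.01 to -0.19. Of the genes called in either direction, 42.0% were then higher, against 55.2% in the main fit. Under this scaling 25 members rose, against 24.1% of all genes tested, and the members' median was 0.94. T-cell genes (9 of 9) and NK-cell genes (6 of 6) fell in Eμ-Myc against WT, and their part in the members' change was not tested. The 16 proliferation markers all rose, with a median log2 fold change of 2.81, and their part was not tested either.

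**Figure D1:**
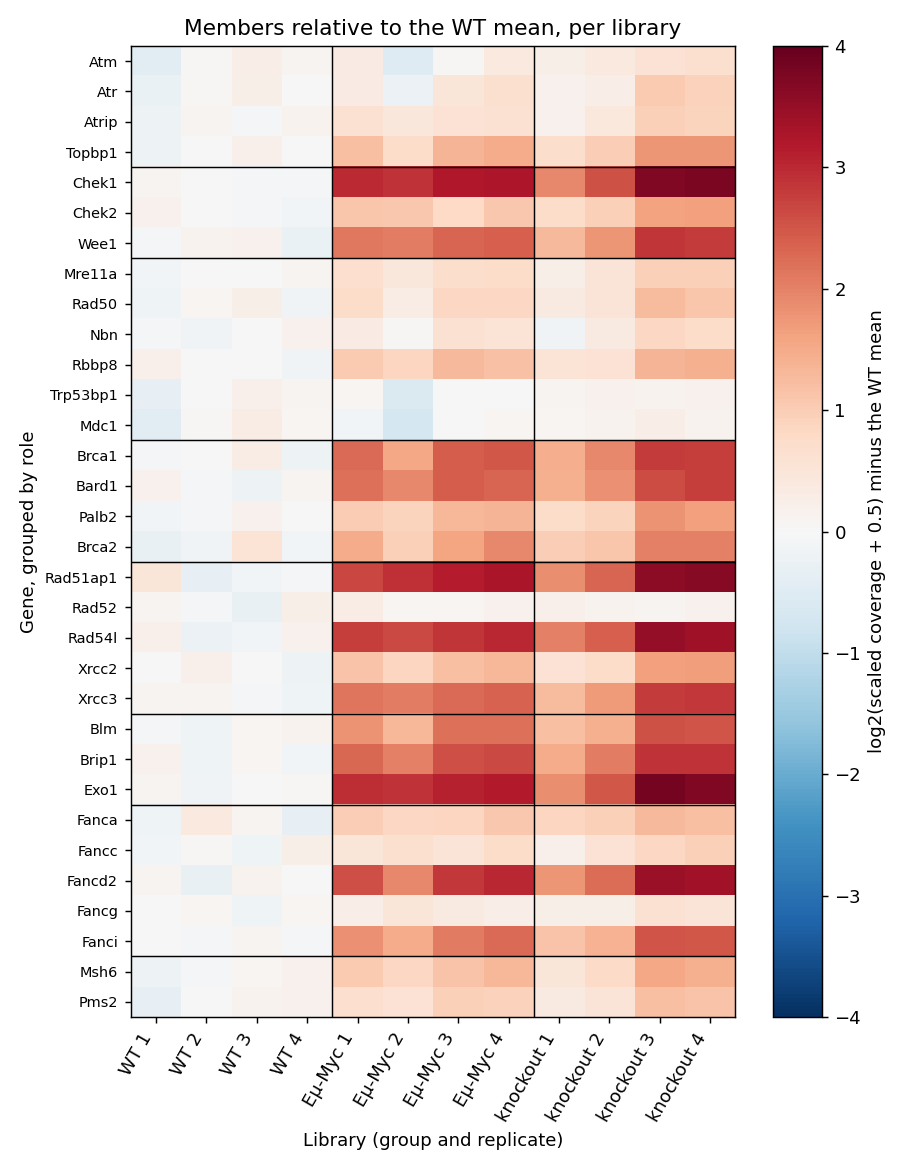
Level of 32 members (rows, grouped by role) in each of the 12 libraries (columns). Colour is log2(scaled coverage + 0.5) minus the WT mean of that gene: the Eμ-Myc libraries are red for most genes, with a highest value of 3.25 in library 4, and knockout libraries 3 and 4 are a deeper red than 1 and 2.

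Of the kinases at the top of the pathway and their partners, Atrip and Topbp1 rose, and Atm and Atr did not pass the test. ATM, the kinase of double-strand breaks, had Atm coverages of 11.6, 16.4, 19.2 and 17 in WT libraries 1 to 4, and 19.9, 11.0, 16.2 and 20.8 in Eμ-Myc libraries 1 to 4. The groups overlapped, with the lowest value of all in Eμ-Myc library 2, and the log2 fold change was 0.06 (95% interval -0.45 to 0.57, limma adjusted p 0.834). Its sign turned to -0.08 without WT library 1, -0.03 without Eμ-Myc library 1 and -0.05 without Eμ-Myc library 4, and to -0.12 with total coverage scaling. Atr, the kinase of stalled forks, went from 13.2 ± 1.99 to 16.6 ± 4.18 (SD, n = 4), a log2 fold change of 0.30 that did not pass (limma adjusted p 0.237). It passed without Eμ-Myc library 2, at 0.48 with an adjusted p of 0.0324. Atrip, which brings ATR to single-stranded DNA, rose by 0.57 (adjusted p 0.0032), although 16.0% of its exonic bases are shared with Trex1 on the same strand, so its reads cannot be told apart from those of Trex1 there.

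TOPBP1 switches ATR on. Topbp1 had a scaled coverage of 39.2, 44.6, 51.7 and 46.0 in WT libraries 1 to 4, and 104, 76.1, 118 and 126 in Eμ-Myc libraries 1 to 4. Every Eμ-Myc library exceeded every WT library, and the log2 fold change was 1.20 (SE 0.16 and adjusted p 2.55e-04 by limma).

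The effector kinases all rose, and CHK1, which ATR activates, had a larger fold change than CHK2, which ATM activates. Chek1 was at 4.00, 3.75, 3.58 and 3.47 in WT libraries 1 to 4, and at 32.7, 30.4, 37.9 and 39.1 in Eμ-Myc libraries 1 to 4. The WT values lay within a narrow band near the low end and the Eμ-Myc mean was 9.47 times the WT mean. The log2 fold change of Chek1 was 3.08 (SE 0.14 and adjusted p 1.51e-06 by limma), the largest of the members in the main fit. Exo1 led with a pseudocount of 0.1 (3.27 against 3.2 for Chek1). Rad51ap1 led with a pseudocount of 2 (2.85 against 2.69), with quality weights (3.22 against 3.18) and without WT library 1 (3.15 against 3.11). Chek2 was at 22.7, 19.9, 19.0 and 18.2 in WT and at 43.3, 42.4, 34.8 and 42.9 in Eμ-Myc. Its groups did not overlap either, and its log2 fold change was 1.02 (SE 0.12, adjusted p 1.08e-04). In WT, Chek2 was thus the more abundant of the pair per length, and in Eμ-Myc the ranges of the pair overlapped. Wee1, a kinase that restrains CDK1, went from 15.8 ± 2.25 to 75.5 ± 8.66 (SD, n = 4), a log2 fold change of 2.22 (adjusted p 3.46e-06). Clspn, the gene of claspin, went from 4.77 ± 0.883 to 46.5 ± 9.59, a log2 fold change of 3.15 (adjusted p 3.58e-06).

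**Figure D2:**
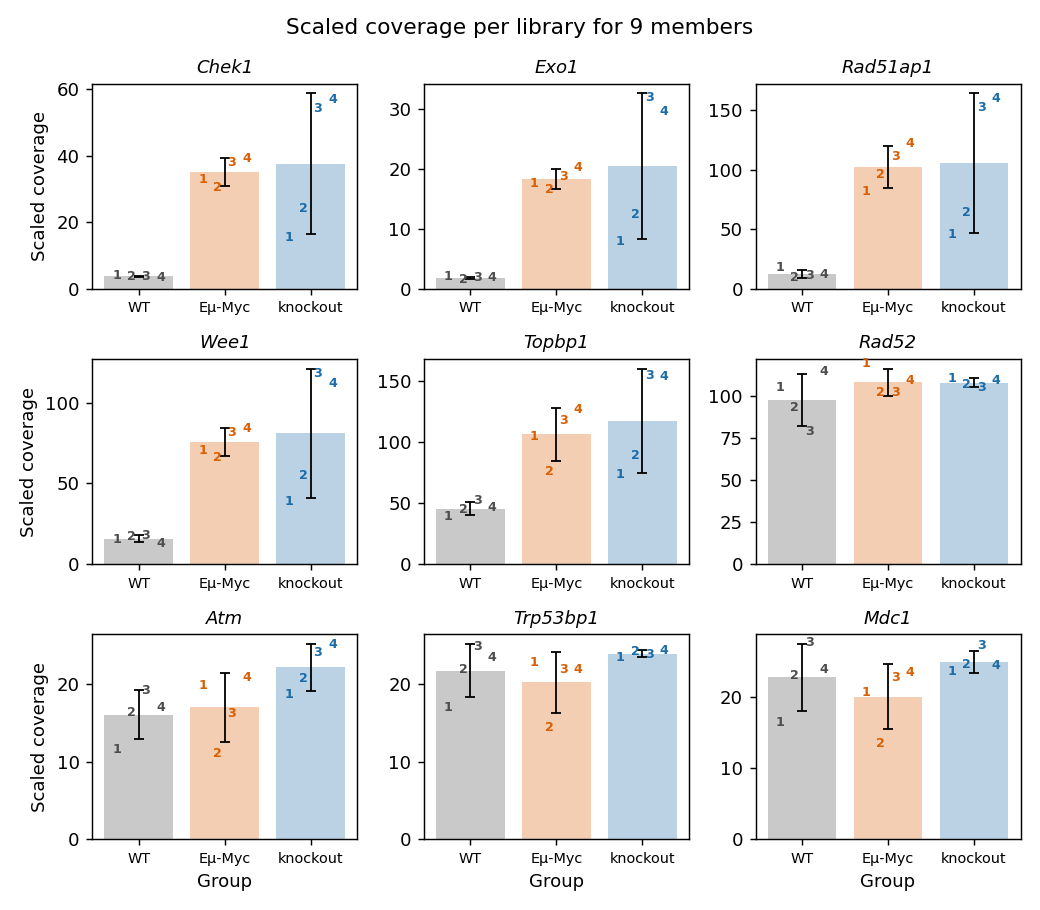
Scaled coverage (vertical axis) of 9 members in WT, Eμ-Myc and the knockout group. Bars are means, lines the SD over 4 libraries, and the digits 1 to 4 mark the library of that replicate number: Chek1 is at 3.47 to 4.00 in WT and at 30.4 to 39.1 in Eμ-Myc, while Rad52 overlaps between all groups.

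Among the genes that sense breaks and mark the chromatin around them, 3 of 6 rose. RBBP8 (CtIP) starts the cutting back of ends. Rbbp8 was at 78.8, 67.3, 67.1 and 61.3 in WT libraries 1 to 4 and at 142, 124, 168 and 153 in Eμ-Myc libraries 1 to 4. All Eμ-Myc values were higher, and its log2 fold change was 1.09 (SE 0.12 and adjusted p 7.71e-05 by limma). Of the MRN complex, which holds the broken ends, Mre11a rose by 0.64 (adjusted p 7.17e-04) and Rad50 by 0.67 (adjusted p 0.00516). Nbn, the third subunit, had 0.38 and missed the threshold (adjusted p 0.0581), but passed without Eμ-Myc library 2 (0.49, adjusted p 0.0132) or WT library 4 (0.44, adjusted p 0.0462). It also passed with a replicate block (limma adjusted p 0.0394), a filter of 10 in every library (0.0424) and quality weights (0.57, adjusted p 0.00127).

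The adaptors at marked chromatin, Mdc1 and Trp53bp1, were also not called. Mdc1, which binds the phosphorylated histone beside a break, was at 16.4, 22.9, 27.6 and 23.8 in WT and at 20.6, 13.4, 22.6 and 23.3 in Eμ-Myc. The groups overlapped, with a log2 fold change of -0.18 (95% interval -0.66 to 0.29, limma adjusted p 0.481). Trp53bp1, which shields ends from resection, had -0.11 (95% interval -0.52 to 0.30, adjusted p 0.621), and 0.04 without Eμ-Myc library 2. In this gene 15.04% of the exonic bases are shared with Tubgcp4 on the other strand, and whether strand was used in counting is not given in the sources used here.

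All 4 genes of the BRCA module rose. Bard1, the partner of BRCA1, was at 3.38, 2.81, 2.54 and 3.24 in WT and at 15.6, 12.6, 18.2 and 16.8 in Eμ-Myc, with no overlap and a log2 fold change of 2.22 (SE 0.17 and adjusted p 1.0e-05 by limma). Brca1 went from 3.71 ± 0.638 to 18.98 ± 4.997 (SD, n = 4), and its log2 fold change of 2.18 nearly equalled that of its partner. Palb2, which joins BRCA1 to BRCA2, was at 16.6, 17.3, 19.96 and 17.6 in WT and at 36.8, 33.4, 45.4 and 46.3 in Eμ-Myc, a log2 fold change of 1.15 (SE 0.14, adjusted p 1.11e-04). It was the most abundant of the 4 per length in WT and rose least. Brca2, which acts on resected ends, went from 3.07 ± 1.04 to 9.46 ± 2.60 (SD, n = 4), a log2 fold change of 1.48 (adjusted p 0.00113).

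The genes of strand exchange rose, with Rad52 as the exception. The product of Rad51ap1 helps strands to pair. Rad51ap1 was at 17.4, 9.74, 11.5 and 11.7 in WT libraries 1 to 4 and at 81.4, 95.6, 111 and 122 in Eμ-Myc libraries 1 to 4, with a log2 fold change of 2.99 (SE 0.19 and adjusted p 3.92e-06 by limma). WT library 1 was the highest of its group, and still far below every Eμ-Myc library. Rad52, which anneals single strands, was at 105, 93.5, 78.8 and 115 in WT and at 119, 102, 102 and 110 in Eμ-Myc. It was the most abundant member per length in WT, its groups overlapped, and its log2 fold change was 0.15 (95% interval -0.13 to 0.44, adjusted p 0.328), or -0.03 with total coverage scaling. Rad54l, a DNA motor protein of strand exchange, rose by 2.82 (adjusted p 1.73e-06), with 15.4% of its exonic bases shared with Lrrc41 on the other strand. Xrcc2 and Xrcc3, which assist strand exchange, rose by 1.13 (adjusted p 4.15e-04) and 2.21 (adjusted p 5.86e-06).

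The helicases and the exonuclease all rose. Exo1, which resects ends over long stretches, was at 1.96, 1.59, 1.79 and 1.90 in WT libraries 1 to 4 and at 17.5, 16.5, 18.8 and 20.3 in Eμ-Myc libraries 1 to 4. Its WT values were among the lowest of the list and its Eμ-Myc mean was 10.1 times its WT mean, the highest ratio of means among the members. The log2 fold change was 3.02 (SE 0.15 and adjusted p 1.73e-06 by limma) with the pseudocount of 0.5, 3.27 with 0.1 and 2.41 with 2. Blm, the helicase that dissolves joined DNA, was at 11.9, 11.0, 13.0 and 13.5 in WT and at 44.3, 31.6, 58.3 and 59.0 in Eμ-Myc. Its groups did not overlap, with a log2 fold change of 1.89 (SE 0.20, adjusted p 5.55e-05). Brip1, a helicase bound to BRCA1, rose by 2.39 (adjusted p 1.42e-05).

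The Fanconi anaemia genes all rose, by very different amounts. Fancd2, which is ubiquitinated at crosslinks, was at 5.26, 3.84, 5.37 and 4.81 in WT and at 30.8, 19.4, 37.3 and 42.1 in Eμ-Myc, with a log2 fold change of 2.58 (SE 0.24 and adjusted p 2.66e-05 by limma). Fanci, its partner, rose by 1.92 (adjusted p 3.63e-05). These targets of the pathway thus had larger fold changes than the 3 members of the core complex that ubiquitinates them, a difference that was not tested. Of that complex, Fanca rose by 0.94 (adjusted p 0.00138) and Fancc by 0.60 (adjusted p 0.00247). Exonic bases shared with a gene on the other strand made up 16.0% in Fanci (Polg), 10.5% in Fanca (Zfp276) and 16.4% in Fancc (Gm16133). Fancg was at 34.1, 35.7, 29.8 and 35.9 in WT and at 40.4, 47.2, 43.8 and 40.7 in Eμ-Myc, with a log2 fold change of 0.34 (SE 0.11, adjusted p 0.0215). Its call was lost with total coverage scaling (adjusted p 0.179) and without WT library 3 or Eμ-Myc library 3 (adjusted p 0.0685 and 0.0603).

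Both mismatch repair genes rose. Msh6, which recognises mismatches, was at 26.5, 29.9, 32.6 and 34.8 in WT and at 64.3, 55.3, 67.9 and 77.4 in Eμ-Myc, a log2 fold change of 1.08 (SE 0.13 and adjusted p 1.32e-04 by limma). Pms2, which nicks the strand to be replaced, was at 12.2, 15.3, 17.1 and 17.2 in WT and at 24.5, 22.9, 30.1 and 29.4 in Eμ-Myc, a log2 fold change of 0.77 (SE 0.15, adjusted p 0.00225). Neither gene's groups overlapped.

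Eμ-Myc library 2 was the lowest of its group in 28 of the 32 members, and in 34.7% of all genes tested. For the 9 members with a transcript of at least 6000 bases, the log2 ratio of library 2 to the mean of the other Eμ-Myc libraries had a median of -0.70, and for the 23 shorter members -0.26. The long members include Atm, Atr, Brca1, Brca2, Mdc1 and Trp53bp1. Without this library 28 members were called instead of 26, the added ones being Atr and Nbn. Over all genes, 3806 of 12529 were then called higher, against 3870 of 12704.

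**Figure D3:**
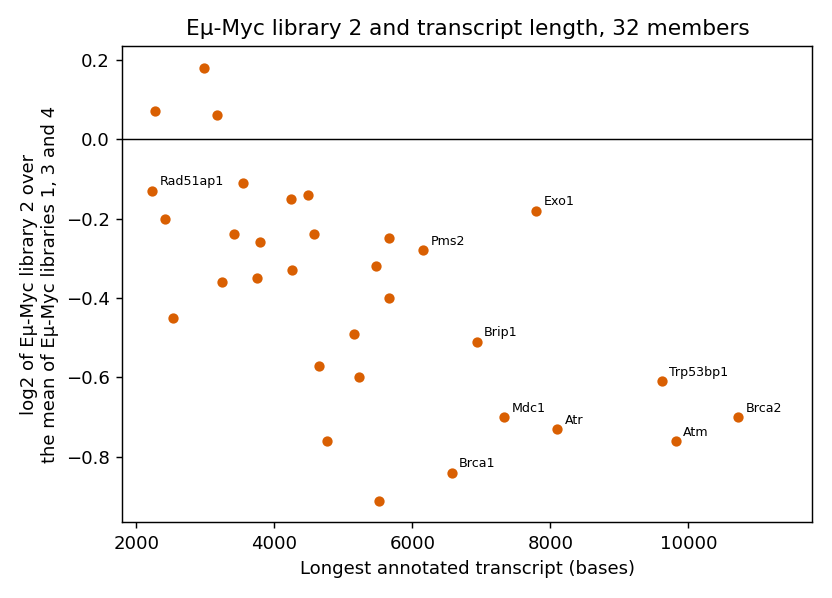
Log2 ratio of Eμ-Myc library 2 to the mean of Eμ-Myc libraries 1, 3 and 4 (vertical axis) against the longest annotated transcript in bases (horizontal axis), with 1 point for each of 32 members. The 9 members from 6000 bases up lie between -0.84 and -0.18, and the 23 shorter ones between -0.91 and 0.18.

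Genes of the same pathways outside the members were read from lists set together with the members. The counts of each list stand beside 30.5% of all genes that rose and 24.7% that fell in Eμ-Myc against WT. Of 25 other checkpoint genes 18 rose and 1 fell. Cdc25c, a phosphatase that opens mitosis, rose by 2.82 and H2afx, the histone marked at breaks, by 2.39, while Rad9a of the checkpoint clamp fell by 0.43 (limma adjusted p 0.00764). Of 34 other recombination genes 22 rose and 2 fell. The nuclease gene Eme1 rose by 2.84, its partner Mus81 had -0.39 (adjusted p 0.0266), and Rad51d, another gene of strand exchange, fell by 0.66 (adjusted p 5.01e-04). The partner genes Eme1 and Mus81 thus had opposite signs, but the call of Mus81 was lost without any 1 of WT libraries 2, 3 and 4 and Eμ-Myc libraries 1, 3 and 4.

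Of 12 other Fanconi genes 8 rose and 0 fell, led by Ube2t, the enzyme that ubiquitinates FANCD2, with 2.38, and Usp1, which reverses it, with 1.41. Of 5 other mismatch repair genes 3 rose, among them Msh3, which recognises larger loops, with 0.81. End joining, which repairs breaks without a template, had 3 of 10 genes higher and 1 lower, a share near the 30.5% of all genes that rose: Xrcc6 (Ku70) rose by 1.84 and Lig4 by 1.26, and Xrcc4 had -0.37 with a limma adjusted p of 0.0463, a call lost without any 1 of 7 libraries, with the replicate block (adjusted p 0.0536) and with no filter (adjusted p 0.0641). Of 14 p53 target genes tested 2 rose (Phlda3 by 0.84, Bax by 0.59) and 4 fell, among them Fas with -1.65 and Sesn2 with -0.94, against 30.5% and 24.7% of all genes. Fas and Sesn2 were highest in WT library 1 (38.6 and 24.5), where the myeloid sum was 24538, and lowest in knockout libraries 3 and 4 (1.67 and 1.55 for Fas, 2.55 and 3.11 for Sesn2), where it was 2951 and 1234. The part of other cells in their values was not tested. The call of Fas was lost with all 12 libraries in one fit (adjusted p 0.0543), and that of Sesn2 under that same fit and without WT library 1 or 3 or Eμ-Myc library 2, 3 or 4. The p53 targets had a median log2 fold change of -0.04, against 0.82 for the other checkpoint genes and 0.69 for the other recombination genes.

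Loss of PRPS2 on the Eμ-Myc background was followed by no called change in these genes. Of the 32 members 0 rose and 0 fell in limma against Eμ-Myc, and for 0 of them was the unadjusted p below 0.05. Over all 12535 genes, 0.00798% were called, which is only Prps2, and the unadjusted p was below 0.05 for 0.957%. The members' median log2 fold change was 0.04, against -0.03 over all genes, with 22 members above 0 and 10 below. That split became 11 and 21 without Eμ-Myc library 2, 8 and 24 without knockout library 3 or 4, 31 and 1 without knockout library 1, and 32 and 0 without knockout library 2. Single members ran from -0.14 for Rad51ap1 to 0.40 for Atm. The 95% intervals were wide, as for Rad51ap1 from -1.07 to 0.80 and for Chek1 from -1.03 to 0.84, so changes within these bounds are not excluded by these libraries. For 28 members the interval lay within a log2 change of 1 in either direction, and it was narrowest for Rad52, from -0.23 to 0.23.

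The 3 members with the smallest p did not pass. Atm was at 18.6, 20.7, 24.1 and 25.1 in knockout libraries 1 to 4, with a log2 fold change of 0.40 (SE 0.22, p 0.101 and adjusted p 1.00 by limma) against Eμ-Myc. Mdc1 was at 23.6, 24.5, 27.1 and 24.4 in the knockout libraries, with 0.34 (p 0.105, adjusted p 1.00), and Trp53bp1 at 23.4, 24.2, 23.8 and 24.3, with 0.26 (p 0.151, adjusted p 1.00). In Mdc1 and Trp53bp1 every knockout library lay above every Eμ-Myc library, as in 0.774% of all genes, and in 0 members was the reverse seen, as in 0.758% of all genes. All 3 have long transcripts and had their lowest Eμ-Myc value in library 2. Without that library the differences were 0.21 for Atm, 0.16 for Mdc1 and 0.11 for Trp53bp1, none of them called.

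**Figure D4:**
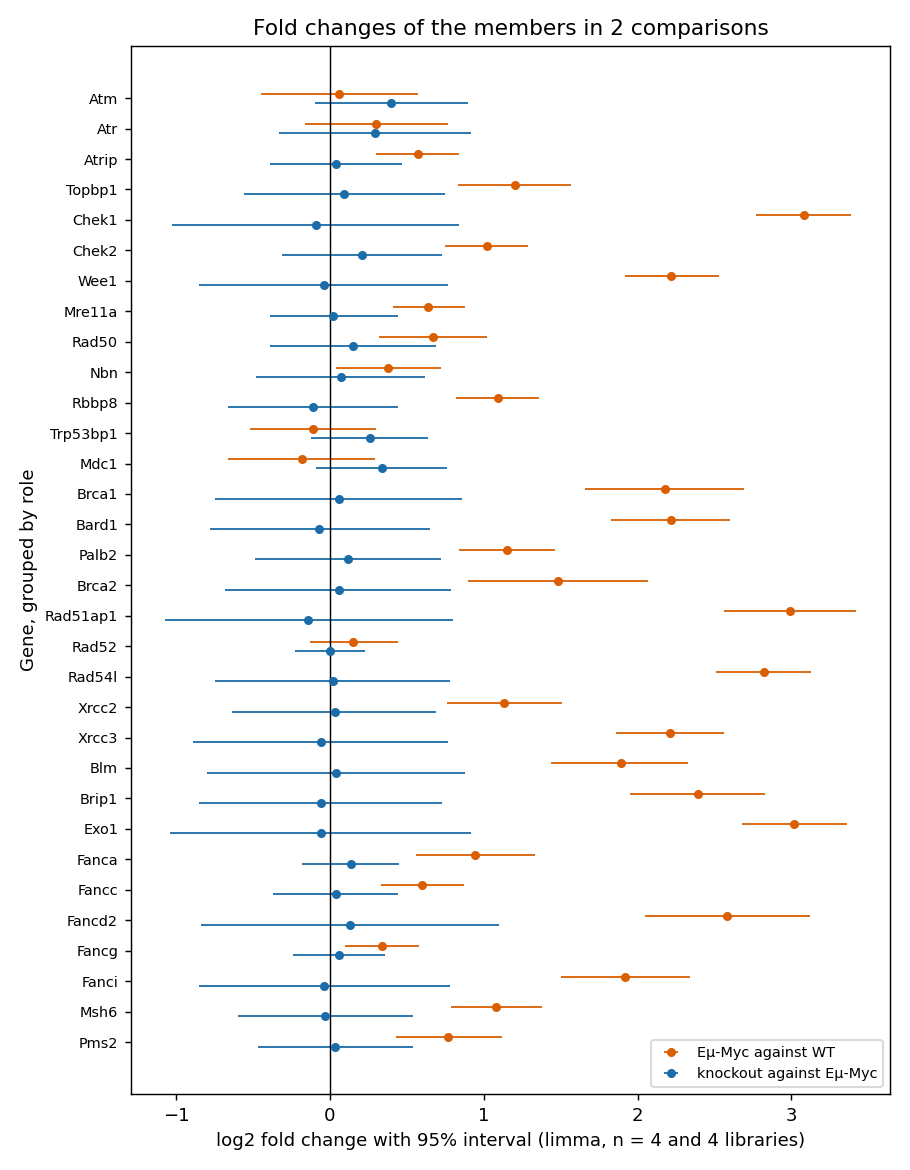
Log2 fold change (horizontal axis) of each of 32 members with its 95% interval from limma, for Eμ-Myc against WT (orange) and the knockout group against Eμ-Myc (blue), from 4 libraries a group. The orange points reach 3.08, and the blue points stay between -0.14 and 0.40 with every interval across 0.

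The wide intervals came with knockout libraries that fell into pairs. Libraries 3 and 4 both lay above libraries 1 and 2 in 29 of the 32 members, and in 46.0% of all genes tested. Both lay below libraries 1 and 2 in 0 members and in 41.3% of all genes, so the pairs were not particular to the members. Libraries 3 and 4 lay above every Eμ-Myc library in 31 members, all but Rad52, against 32.6% of all genes. In 15 members libraries 1 and 2 lay below, and 3 and 4 above, every Eμ-Myc library, against 17% of all genes. The mean of libraries 3 and 4 was 0.986 to 3.06 times that of libraries 1 and 2, with a median of 1.85, against 1.04 over all genes.

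Chek1 was at 15.2, 24.0, 54.2 and 56.9 in knockout libraries 1 to 4, between which the Eμ-Myc range of 30.4 to 39.1 lay. Exo1 was at 7.82, 12.3, 31.98 and 29.6 and Rad51ap1 at 45.9, 64.3, 152 and 160 in the same libraries. Rad52, at 111, 107, 105 and 110, showed no such pairs. Chek2 was at 33.1, 38.8, 61.5 and 62.5, so that its knockout libraries differed less than those of Chek1. Topbp1 was at 73.0, 88.9, 154 and 153, Fancd2 at 17.6, 24.5, 57.1 and 54.3, and Fancg at 40.0, 39.5, 51.9 and 48.8. The ratio of libraries 3 and 4 to libraries 1 and 2 was thus 3.06 for Exo1, but 1.27 for Fancg, 1.07 for Mdc1, 1.01 for Trp53bp1 and 0.986 for Rad52.

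Other measures moved with these pairs. Myc itself was at 1099, 1719, 3018 and 3282 in knockout libraries 1 to 4, against 1557 to 2302 in Eμ-Myc. The proliferation markers summed to 2409, 3297, 6910 and 6941, against 4134 to 5360 in Eμ-Myc, and the T-cell and myeloid sums given above were lower in libraries 3 and 4. The median deviation of long transcripts minus that of short ones, measured as for Eμ-Myc library 2, was 0.177, 0.215, -0.202 and -0.144 in knockout libraries 1 to 4. The part of these measures in the members' values was not tested. Prps2 did not follow the pairs, at 18.3, 17.01, 17.1 and 16.2.

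**Figure D5:**
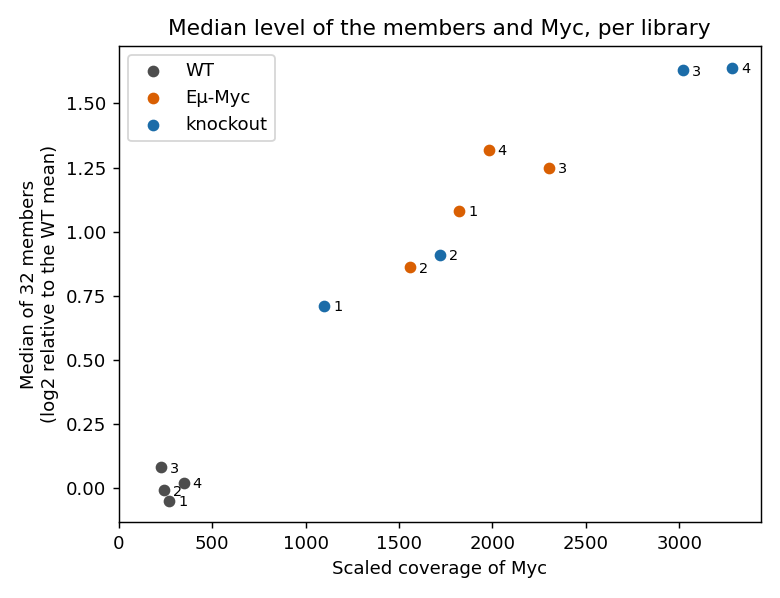
Median over 32 members of log2(scaled coverage + 0.5) minus the WT mean (vertical axis) against the scaled coverage of Myc (horizontal axis), 1 point for each of the 12 libraries, numbered by replicate. WT libraries lie between -0.05 and 0.08, Eμ-Myc libraries between 0.86 and 1.32, and the knockout libraries at 0.71, 0.91, 1.63 and 1.64.

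The comparison of knockout with Eμ-Myc was also fitted without each pair. The pairs were known from these genes' own values, so the direction that follows is set by the choice of libraries and nothing is read from it. Without knockout libraries 1 and 2, 8 of 32 members were called, all of them higher in the knockout group, against 12.3% of all genes higher and 16.4% lower: Chek1, Chek2, Wee1, Palb2, Rad51ap1, Rad54l, Xrcc3 and Exo1. Without libraries 3 and 4, 1 member was called, Rad51ap1, and it was lower, against 2.26% of all genes higher and 1.94% lower. The members' median was 0.53 in the first case and -0.40 in the second. With the libraries weighted by their quality, 27 members were called higher in the knockout group, with a median of 0.38. That setting called 59.5% of all genes, 31.2% as higher and 28.3% as lower, where the unweighted fit called Prps2 alone.

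Against WT, most members were also higher in the knockout group. In limma 24 of 32 members rose and 0 fell, against 19.7% of all 12692 genes higher and 9.52% lower, and the members' median log2 fold change was 1.19 against -0.01. The groups did not overlap in 25 members, all with the knockout libraries above, against 22.2% of all genes. In the same comparison all 16 proliferation markers rose, with a median of 2.67, and 4 of 5 platelet genes fell. The 9 T-cell genes had a median of -3.19 with 0 called, and the part of these measures was not tested. Both comparisons with WT share its 4 libraries. Side by side, the log2 fold changes against WT, first of Eμ-Myc and then of the knockout group, were 3.08 and 2.98 for Chek1, 2.18 and 2.24 for Brca1, 2.99 and 2.85 for Rad51ap1, and 1.02 and 1.23 for Chek2.

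The 8 members that did not pass against WT in the knockout group were Atm, Atr, Atrip, Nbn, Trp53bp1, Mdc1, Rad52 and Fancg. Atrip (0.61, adjusted p 0.053) and Fancg (0.40, adjusted p 0.056) came closest, and both had been called in Eμ-Myc. Both passed against WT with all 12 libraries in one fit (limma adjusted p 0.0166 and 0.0216). They also passed with a filter of 10 in every library (0.0349 and 0.047), with quality weights (1.89e-05 and 1.35e-04) and without knockout library 1 (0.0136 and 0.033). The difference between the transgenic groups was tested directly above and was not called for either in the main fit. The count of 24 moved with single libraries, as did the number of all genes called higher, which was 2500 of 12692 in the main fit. Leaving out WT library 1, 2 or 3 or knockout library 4 gave 14 members, and 745, 579, 561 and 595 of all genes. Leaving out WT library 4 or knockout library 3 gave 16 members, and 1023 and 643 of all genes. Leaving out knockout library 1 gave 28 members and 3700 of all genes. Between 12479 and 12576 genes were tested in these fits. The members' count was 18 without knockout libraries 3 and 4 together, against 1031 of 12473 genes called higher. It was 29 without knockout libraries 1 and 2 together, against 4392 of 12295 genes. In 25 members knockout libraries 1 and 2 both lay above every WT library, against 24.2% of all genes. In 13 members, among them Chek1, Wee1, Brca1, Bard1, Rad51ap1, Rad54l and Exo1, the call held under all alternatives that tested them.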

How the data were processed

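The deposited files hold 1 coverage value per gene symbol and library, a signal that the authors made; its unit was read from the file names and values (1 decimal, 91.6% of values above 0 not whole). The submitters' processing notes list mm10, DESeq and R 4.3.3 with no role. The aligner, the counting step and the use of strand are not given in the sources used here. Libraries were scaled by unweighted trimmed means of log ratios (30% of ratios and 5% of means trimmed at each end). The fit was limma 3.58.1 in R 4.3.3 on log2(scaled coverage + 0.5), with limma-trend and its robust option, for genes at 1 or more in at least 4 of the 8 libraries compared, two-sided, with Benjamini-Hochberg adjustment over all genes. Fold changes of low genes are understated by the pseudocount. The members and lists were chosen with earlier results of these data known. All 32 members are named; within each role the members with the largest and smallest change against WT are shown per library, and from other lists the 2 largest changes each way. Of those, 2 genes are not reported here. Loci and overlaps come from GENCODE M21 (GRCm38) and promoters from RefSeq. Tables and figures used Python 3.11.15, numpy 2.4.6, pandas 2.3.3 and matplotlib 3.10.9. The method was tested on simulated data. The labels number replicates 1 to 4 in each group. Between the transgenic groups, the deviations of libraries with the same number had correlations of 0.639, 0.187, 0.244 and 0.597 over 12946 genes. A replicate block was therefore also fitted. Libraries of different numbers were not compared in this way, so these correlations cannot show pairing by number. No label states such a pairing.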

Additional observations from a re-analysis of the deposited data

Results flagged for a closer look

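3 of the 96 groups of 4 libraries examined over the 32 members had 1 library far from the other three by a gap test at the 95% level, where chance gives about 1 in 20. Chek2 was lowest in Eμ-Myc library 3, at 34.8 against 42.4 to 43.3 in the other libraries of the group. Brca2 was highest in WT library 3, at 4.61 against 2.35 to 2.68. Trp53bp1 was lowest in Eμ-Myc library 2, at 14.4 against 21.9 to 22.7.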

How the results depend on the processing

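In Eμ-Myc against WT, 25 of the 26 member calls held under every alternative that tested them, the exception being Fancg. A filter of 10 in every library tested 20 members and called 15, with a median of 0.66, because it drops members low in WT. It called 2939 of 8148 genes as higher. Total coverage scaling turned the sign of Atm (-0.12) and Rad52 (-0.03), and in the knockout group against WT that of Rad52 (-0.00063) and Trp53bp1 (-0.0043). Leaving out 1 library at a time, Atm ran from -0.08 to 0.25 and Trp53bp1 from -0.22 to 0.04 in Eμ-Myc against WT. In the knockout group against Eμ-Myc, 27 members were called with library quality weights, 8 without knockout libraries 1 and 2 (median 0.53) and 1 without knockout libraries 3 and 4 (median -0.40). In the knockout group against WT, leaving out 1 library gave 14 to 28 members. The filter of 10 gave 14 (median 0.74), against 2092 of 7881 genes called higher. The members' median was 1.60 with quality weights, 1.64 without knockout libraries 1 and 2 and 0.82 without 3 and 4. Over all genes, the knockout group against Eμ-Myc had 7463 calls with quality weights, 3494 without knockout libraries 1 and 2 and 521 without 3 and 4, against 1, and against WT 6050 with all 12 libraries in one fit, 10507 with quality weights, 1869 with the replicate block, 8616 without knockout libraries 1 and 2, 1326 without 3 and 4, and 600 to 6631 without 1 library, against 3708. Between the transgenic groups the replicate block changed no member call. Against WT the correlations of libraries with the same number were -0.098 to 0.251 for Eμ-Myc and -0.409 to 0.391 for the knockout group. There the block gave 27 members for Eμ-Myc and 20 for the knockout group. Over all genes, the block called 3903 of 12704 higher for Eμ-Myc and 1437 of 12692 for the knockout group. Causes were not tested. The planned search of protein sequences was not run. The depth is unknown, so no counting error was given.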
